A study of Mus musculus with 6 samples.

Results

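The transcripts described here are 10 genes of the circadian clock and its rhythmic output in liver (Dbp, Tef, Hlf, Nfil3, Bhlhe40, Bhlhe41, Cry1, Cry2, Usp2 and Rgs16), out of 12469 genes tested. They were taken by name, and every probe set that the array annotation gives to 1 gene alone was read, which gave 18 probe sets, 17 of them bright enough to be tested. A probe set is a group of short probes that measures 1 transcript on an Affymetrix array, and its value is on the log2 scale of robust multichip average (RMA), so that a difference of 1 is a doubling. Where a gene has several probe sets, the gene is read by the one with the highest mean over the 6 arrays. Liver came from 3 male GHRH-KO mice, which lack growth hormone-releasing hormone in every tissue and so are deficient in growth hormone, and from 3 male wild-type littermates, called controls. Both groups share a mixed C57BL6 and 129SV background, an age of 10 months according to the methods, a cycle of 12 h light and 12 h dark, and a fast of 6 to 8 h before death by CO2 inhalation. The hour of death is not given in the sources used here, so a change in the level of a rhythmic transcript and a change in its phase cannot be told apart from a single collection. Each array holds 1 animal.

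The circadian clock is a feedback loop of transcription. CLOCK, or its relative NPAS2, pairs with the product of Arntl, also called BMAL1, and the pair binds E-box sequences and switches on the Period and Cryptochrome genes, whose proteins then repress the pair. BHLHE40 and BHLHE41 bind the same E-boxes as repressors. A further loop runs through REV-ERB and ROR nuclear receptors, which act on Arntl. The clock drives its output through the PAR bZIP factors DBP, TEF and HLF, which activate genes that hold a D-box sequence, while NFIL3 represses the same sites and peaks at the opposite phase. Liver holds a strong clock that follows feeding as well as light, and the products of many metabolic genes cycle there.

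The promoter windows of the members whose start region holds an exact E-box are shown first, because E-boxes and D-boxes are the sequences through which these factors act. Windows run from 250 bases before to 50 after a listed start (GRCm38.p6), and 9 of the 10 members had at least 1 window, 10 windows in all. These windows do not cover every start of a gene. Usp2, on the plus strand of chromosome 9, begins at 44067021 in RefSeq, while its window lies at 44084670 to 44084969. The counts below hold for the windows searched only. The E-box CACGTG was found in 4 of the 10 windows, 2 of them the separate starts of Tef, while 7.15% of all 32851 windows of this length hold it. No window of a member held a D-box (TTATGTAA or TTACGTAA, in 1.06% of all windows) or a RORE (0.384%), and 1 held a CRE (TGACGTCA or TGACGTAA, 2.28% of all windows), which is that of Hlf. Both strands were searched, and the motifs do not overlap in these windows. The capitals mark the match. The window of Per3, a clock gene outside the members that holds D-boxes, is given for comparison, since its values over the arrays were the most like those of Tef.

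Tef, first start, chr15:81802423-81802722, plus strand, E-box 127 bases before the start: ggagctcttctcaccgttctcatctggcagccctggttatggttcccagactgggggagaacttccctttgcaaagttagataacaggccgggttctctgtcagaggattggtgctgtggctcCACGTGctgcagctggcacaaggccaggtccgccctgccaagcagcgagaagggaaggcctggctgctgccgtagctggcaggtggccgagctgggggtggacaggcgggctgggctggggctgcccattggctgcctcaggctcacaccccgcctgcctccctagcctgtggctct
Tef, later start, chr15:81811164-81811463, plus strand, E-box 138 bases before the start: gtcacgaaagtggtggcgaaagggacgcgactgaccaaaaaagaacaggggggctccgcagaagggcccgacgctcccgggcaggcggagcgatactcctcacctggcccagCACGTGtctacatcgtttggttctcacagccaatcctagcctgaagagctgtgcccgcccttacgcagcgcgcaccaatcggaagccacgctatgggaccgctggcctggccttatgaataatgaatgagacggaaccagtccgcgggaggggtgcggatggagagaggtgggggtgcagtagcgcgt
Cry1, chr10:85185005-85185304, minus strand, E-box 60 bases before the start: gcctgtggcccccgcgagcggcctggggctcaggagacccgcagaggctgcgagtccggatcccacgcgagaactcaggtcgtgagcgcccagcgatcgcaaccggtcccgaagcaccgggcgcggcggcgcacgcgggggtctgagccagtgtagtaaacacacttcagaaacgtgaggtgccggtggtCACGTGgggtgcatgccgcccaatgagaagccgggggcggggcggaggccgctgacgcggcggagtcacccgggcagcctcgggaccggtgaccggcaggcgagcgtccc
Bhlhe41, chr6:145865371-145865670, minus strand, E-box 153 bases before the start: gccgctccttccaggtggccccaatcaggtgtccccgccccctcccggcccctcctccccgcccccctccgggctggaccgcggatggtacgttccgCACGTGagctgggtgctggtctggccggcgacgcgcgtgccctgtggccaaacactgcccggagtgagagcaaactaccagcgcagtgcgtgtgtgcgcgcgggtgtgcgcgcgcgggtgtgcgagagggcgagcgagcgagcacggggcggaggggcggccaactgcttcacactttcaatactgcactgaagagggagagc
Per3, chr4:151044616-151044915, minus strand, D-boxes 205 and 158 bases before the start: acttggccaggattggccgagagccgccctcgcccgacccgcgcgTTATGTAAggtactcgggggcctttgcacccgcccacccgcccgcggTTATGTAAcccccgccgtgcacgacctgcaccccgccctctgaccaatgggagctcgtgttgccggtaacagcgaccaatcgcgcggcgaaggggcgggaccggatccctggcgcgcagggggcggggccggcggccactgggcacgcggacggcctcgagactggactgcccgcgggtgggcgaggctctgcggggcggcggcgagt

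In these windows the E-box genes did not move in 1 direction: Tef was higher in GHRH-KO liver, while Cry1 and Bhlhe41 did not pass the test and had lower means. A match of letters is a description of the window and says nothing about the binding of a factor in these animals.

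Any pair of arrays had a Pearson's r between 0.973 and 0.994 over all probe sets but the array controls, which do not stand for independent replicates, and the array medians lay between 4.95 and 4.99. GHRH-KO replicate 5 stood apart, with 0.973 to 0.979 against the controls, below every other pair. Without it the log2 fold changes were 2.53 for Rgs16 (limma adjusted p = 0.00165), 1.26 for Usp2 (adjusted p = 0.046), 0.81 for Tef (adjusted p = 0.0963) and 1.33 for Dbp (adjusted p = 0.188), so that Rgs16 and Usp2 were the members called. The hepatocyte markers Alb, Ttr, Apoa1, Hpx, Tdo2 and Tat stood higher than at least 99.4% of probe sets, and none of the 6 was called between genotypes. Their mean was 13.75 to 13.86 in controls and 13.87 to 13.94 in GHRH-KO mice, without overlap, and its part in the results was not tested. The 3 to 8 markers of Kupffer cells, endothelial cells, stellate cells and cholangiocytes gave no call, and of the few tested erythroid, lymphocyte and neutrophil markers 1 was called, the erythroid enzyme Alas2 (log2 fold change -1.36). All 7 stellate cell markers had higher means in GHRH-KO mice, with a median log2 fold change of 0.43 where that of all genes was 0.00. The mean of the 7 was 8.24 to 8.59 in GHRH-KO mice and 7.64 to 8.30 in controls, and its part in the results was not tested. The mean of the 8 Kupffer cell markers was highest in control replicate 1 (8.65) and GHRH-KO replicate 4 (8.62), against 7.28 to 7.92 in the other arrays. Ghrh, the disrupted gene, read 4.40 to 4.75 in all 6 arrays, a level near background in this tissue, so it does not check the labels. In a bulk sample fewer cells of a type and less RNA per cell cannot be told apart.

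Rgs16, a regulator of G protein signaling whose liver transcript follows feeding, and Tef, a PAR bZIP activator, rose in GHRH-KO liver. Usp2, a ubiquitin protease with rhythmic expression, lay wholly above the controls by both of its probe sets, of which 1 was called. Dbp, a PAR bZIP factor known for a deep daily rhythm, was higher in every GHRH-KO animal than in any control but missed the threshold, and the repressors Nfil3 and Cry1 had lower means without passing. By the brightest probe set, 2 of the 10 members were called, both higher and none lower, where 1.76% of all genes tested were called (0.786% higher and 0.97% lower). A call needed an adjusted p under 0.05 from limma with a fold change above 1.5 or below 0.67. The values of the genotypes did not overlap in 4 members, all of them higher in GHRH-KO mice, while 28.4% of all genes did not overlap, 12.7% lying wholly above and 15.7% wholly below. With p under 0.05 before adjustment, 4 members had higher and 2 lower means, where 19.2% of all genes passed in either direction. Tef, Usp2 and Rgs16 also stand in gene lists that the study chose on these samples. Among the genes below, so do at least Per3, Elovl3, Igfbp1 and Ppargc1a. The counts that hold these genes are therefore not independent evidence of a direction. The median log2 fold change of the members was 0.38 and that of all genes tested 0.00.

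**Figure D1:**
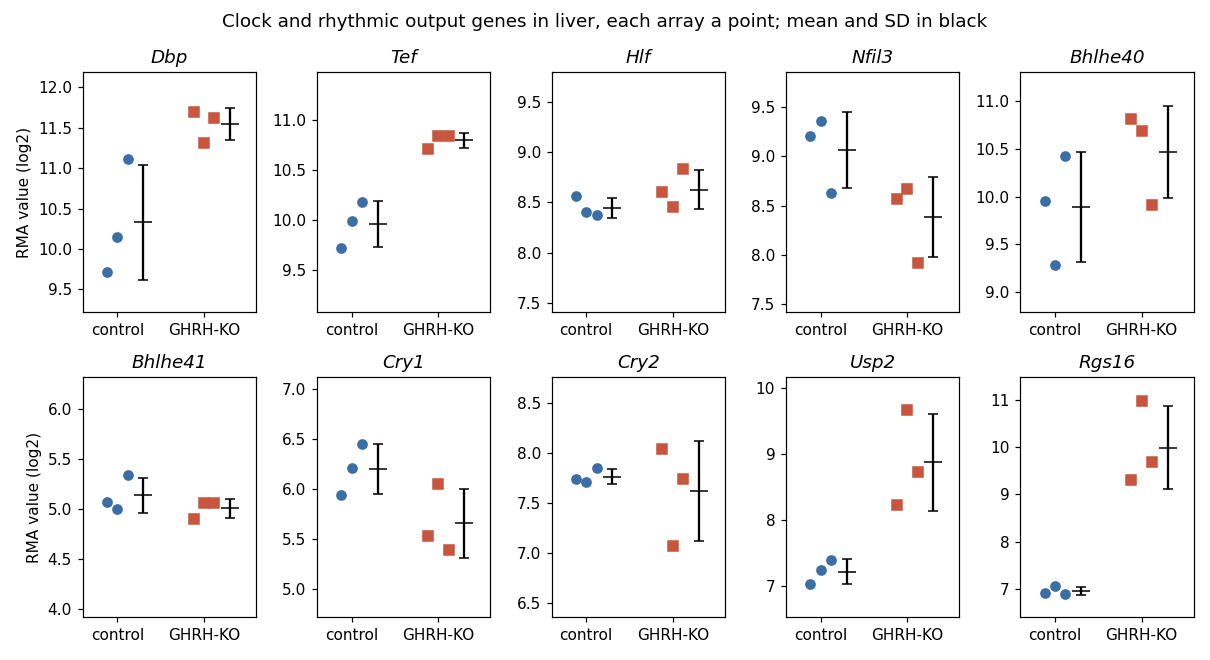
RMA values (log2) of the brightest probe set of each member of all 6 arrays, control beside GHRH-KO, where black marks give group mean and SD, and with a separate scale for each gene. The GHRH-KO points lie wholly above the control points for Dbp, Tef, Usp2 and Rgs16 and overlap them for the other 6 genes.

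Of the PAR bZIP activators, Tef was called and Dbp and Hlf were not. Tef, by its brightest probe set, read 9.71, 9.99 and 10.17 in the controls (replicates 1 to 3, in order) and 10.70, 10.84 and 10.83 in the GHRH-KO mice (replicates 4 to 6, in order, here and below). The GHRH-KO values lay close together and all above the controls. The log2 fold change was 0.83 (SE 0.14, a fold change of 1.78, limma adjusted p = 0.0465), and it became 0.71 to 0.94 with 1 array left out, where the adjusted p ran from 0.0722 to 0.158 and the call was lost in each of the 6 fits, which have fewer samples. Its other probe sets also had higher means in GHRH-KO mice without passing, with log2 fold changes of 0.62 (limma adjusted p = 0.263) and 0.30 (adjusted p = 0.363). In both of these at least 1 GHRH-KO value lay among the controls.

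Dbp read 9.72, 10.15 and 11.12 in controls and 11.69, 11.32 and 11.63 in GHRH-KO mice. Control replicate 3 lay close to the lowest GHRH-KO animal, and the controls spread far more than the GHRH-KO mice (SD of 0.72 against 0.20). The log2 fold change was 1.22 (95% confidence interval 0.43 to 2.01, limma adjusted p = 0.136). The second probe set showed the same order of the groups, with 7.79, 8.51 and 9.36 in controls and 9.94, 10.04 and 10.01 in GHRH-KO mice, and a log2 fold change of 1.44 (limma adjusted p = 0.107). Without control replicate 3 both probe sets were called, with log2 fold changes of 1.61 and 1.84 (adjusted p = 0.042 for each from limma).

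Hlf, the third PAR bZIP gene, read 8.56, 8.41 and 8.38 in controls and 8.60, 8.45 and 8.83 in GHRH-KO mice, and the groups overlapped. Its log2 fold change was 0.18 (95% confidence interval -0.14 to 0.50, limma adjusted p = 0.514) for this probe set and 0.11 (95% confidence interval -0.20 to 0.42) for the other. Both intervals end below the 0.83 of Tef, though the difference between the genes was not tested.

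Nfil3, the repressor of D-box sites, read 9.21, 9.36 and 8.63 in controls and 8.57, 8.67 and 7.92 in GHRH-KO mice. The highest GHRH-KO value was just above the lowest control, that of replicate 3, which was also the control with the most Dbp. The log2 fold change was -0.68 (95% confidence interval -1.29 to -0.06, unadjusted p = 0.0348, limma adjusted p = 0.239), so the mean was lower without passing the test.

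**Figure D2:**
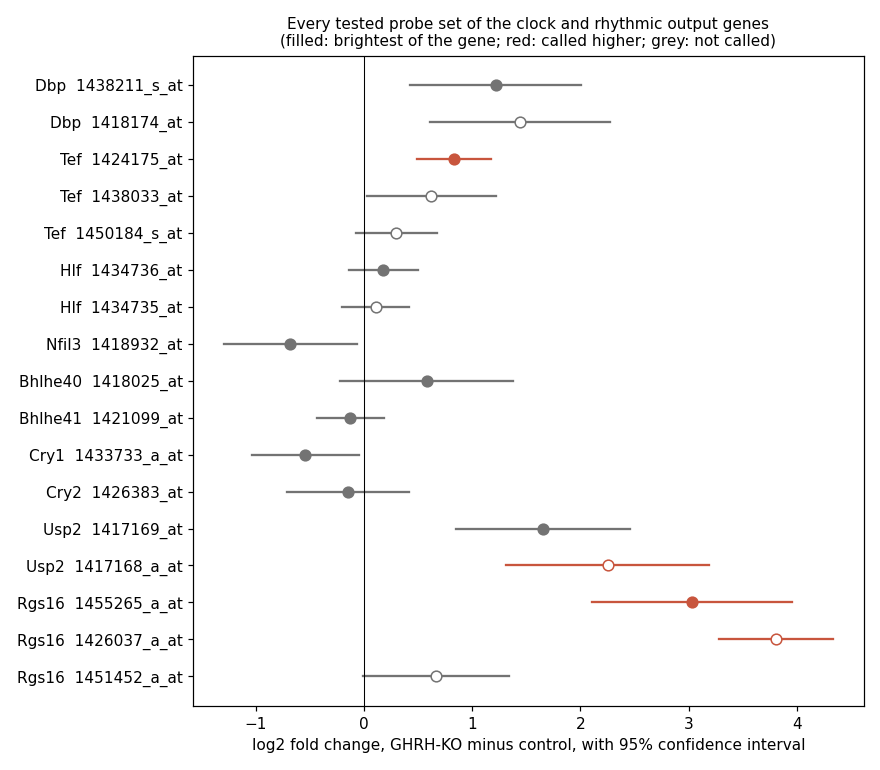
Log2 fold changes (GHRH-KO minus control) with 95% confidence intervals for the 17 tested probe sets of the members, where filled points are the brightest probe set of a gene and red marks those called higher. The 4 red probe sets belong to Rgs16, Usp2 and Tef, and no probe set was called lower.

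The E-box repressors did not pass the test. Bhlhe40 read 9.95, 9.28 and 10.43 in controls and 10.81, 10.68 and 9.91 in GHRH-KO mice, with a log2 fold change of 0.58 (95% confidence interval -0.22 to 1.38, limma adjusted p = 0.404), and its control and GHRH-KO values overlapped widely. Bhlhe41 was dim, between 4.90 and 5.33 on all arrays, with a log2 fold change of -0.13 (95% confidence interval -0.44 to 0.18, limma adjusted p = 0.633). Its second probe set, at 3.44 to 3.68, was the only one of the 18 below the filter on dim probe sets. Fitted without that filter it had a log2 fold change of 0.06 (limma adjusted p = 0.839). The 2 probe sets of Bhlhe41 thus had opposite signs, whereas those of the other 5 genes with more than 1 had the same sign.

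The Cryptochromes, which carry the repression of the clock loop, did not pass. Cry1 read 5.94, 6.20 and 6.44 in controls and 5.53, 6.05 and 5.39 in GHRH-KO mice. Only GHRH-KO replicate 5 lay within the control range. The log2 fold change was -0.54 (95% confidence interval -1.04 to -0.05, limma adjusted p = 0.241). Cry2 read 7.74, 7.71 and 7.85 in controls and 8.05, 7.07 and 7.75 in GHRH-KO mice, a log2 fold change of -0.14 (95% confidence interval -0.71 to 0.42, limma adjusted p = 0.779) that turned to 0.13 without GHRH-KO replicate 5. The Cry2 gene shares chromosome 2 with the disrupted Ghrh locus, at 92403646 to 92434085 and 157329496 to 157348725 (GRCm38.p6).

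Rgs16 showed the widest separation of the members. By its brightest probe set it read 6.92, 7.05 and 6.90 in controls and 9.30, 10.97 and 9.69 in GHRH-KO mice. The controls were tightly grouped, and the lowest GHRH-KO animal stood far above them. The log2 fold change was 3.03 (SE 0.39, a fold change of 8.16, limma adjusted p = 0.0173), and with 1 array left out it ran from 2.53 to 3.37. Leaving out any control, or GHRH-KO replicate 6, ended the call, and adjusted p then reached 0.0835.

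A second probe set of Rgs16 read 5.92, 5.02 and 5.29 in controls and 9.14, 9.22 and 9.29 in GHRH-KO mice, and here it was the GHRH-KO values that were tight. Its log2 fold change of 3.81 (SE 0.22, a fold change of 14.0, limma adjusted p = 5.9e-04) was called in all 6 fits with 1 array left out, with adjusted p up to 0.00706. The third probe set was dim and gave a smaller value, 0.67 (limma adjusted p = 0.281), with GHRH-KO replicate 5 within the control range. The probe sets of this gene thus differ in the size of the change.

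Usp2 read 7.02, 7.24 and 7.39 in controls and 8.22, 9.66 and 8.73 in GHRH-KO mice by its brightest probe set. Every GHRH-KO value lay above every control, and GHRH-KO replicate 5 stood highest, as it did for the brightest probe set of Rgs16. The log2 fold change was 1.66 (95% confidence interval 0.85 to 2.46, limma adjusted p = 0.0727), which missed the threshold. The second probe set read 6.67, 6.77 and 7.14 in controls and 8.31, 10.01 and 9.01 in GHRH-KO mice and was called, with a log2 fold change of 2.25 (SE 0.40, a fold change of 4.76, limma adjusted p = 0.0491). With 1 array left out its adjusted p ran from 0.0224 to 0.165, and it was called in 2 of the 6 fits, those without GHRH-KO replicate 4 or 5. Without the filter on dim probe sets the adjusted p was 0.0536 and the call was lost. Over the 17 tested probe sets of the members 4 were called, of 3 genes, where 1.48% of all tested probe sets were called.

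The other genes of the clock loop, which are not members, came from a list of 15, of which 12 were tested. Per3 was called higher and none was called lower, where 1.76% of all genes were called, while 6 had higher and 2 lower means with p under 0.05 before adjustment, which 19.2% of all genes reached. In 8 of the 12 the genotypes did not overlap, 6 above and 2 below, where 28.4% of all genes did not (12.7% above and 15.7% below), and the median log2 fold change was 0.24. Per3, a Period gene of the repressing arm, read 6.13, 6.70 and 7.05 in controls and 8.04, 8.16 and 8.05 in GHRH-KO mice, a log2 fold change of 1.46 (SE 0.23, limma adjusted p = 0.031), which was called in 2 of the 6 fits with 1 array left out, those without control replicate 1 or 3. Another of its 6 probe sets was called as well (limma adjusted p = 0.0358), and the other 4 were not.

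Arntl, the activator of the loop, had the most negative fold change of this list. It read 7.78, 7.56 and 6.85 in controls and 6.35, 6.05 and 5.55 in GHRH-KO mice, a log2 fold change of -1.41 (95% confidence interval -2.09 to -0.73, limma adjusted p = 0.0725). A dimmer probe set of Arntl gave a smaller value, -0.21 (limma adjusted p = 0.454), and also lay wholly below the controls. Clock, the partner of Arntl, had a log2 fold change of -0.41 (limma adjusted p = 0.202) by its brightest probe set, with every GHRH-KO value below the controls. Another Clock probe set gave 0.01 with overlapping values. The remaining ones gave -0.62 and -0.27 (limma adjusted p = 0.0584 and 0.267) and also lay wholly below. On the other side, Ciart, a repressor of the CLOCK and BMAL1 pair, had a log2 fold change of 1.56 (limma adjusted p = 0.0941), Per2 one of 1.17 (adjusted p = 0.114), Nr1d2, which encodes REV-ERB beta, one of 0.84 (adjusted p = 0.0862) and Per1 one of 0.59 (adjusted p = 0.152). None of these passed. The other tested probe sets of Per2 gave 0.31 and 0.34 (limma adjusted p = 0.535 and 0.327), with overlapping genotypes. Arntl2 also lay wholly above the controls, with a log2 fold change of 0.36 (limma adjusted p = 0.209), without passing. Nr1d1, which encodes REV-ERB alpha, had a log2 fold change of -0.23 (95% confidence interval -0.68 to 0.23). Rora, a ROR gene, had one of -0.24 (limma adjusted p = 0.535) by its brightest probe set. Its other tested probe sets ran from -0.51, wholly below the controls, to 0.30, wholly above them, without a call. The clock kinases Csnk1d and Csnk1e gave -0.08 and 0.12 by their brightest probe sets. The other Csnk1d probe sets ran from -0.62 to -0.26 without a call. Those at -0.38 and -0.43 (limma adjusted p = 0.166 and 0.139) lay wholly below the controls. Another tested probe set of Csnk1e gave -0.16.

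**Figure D3:**
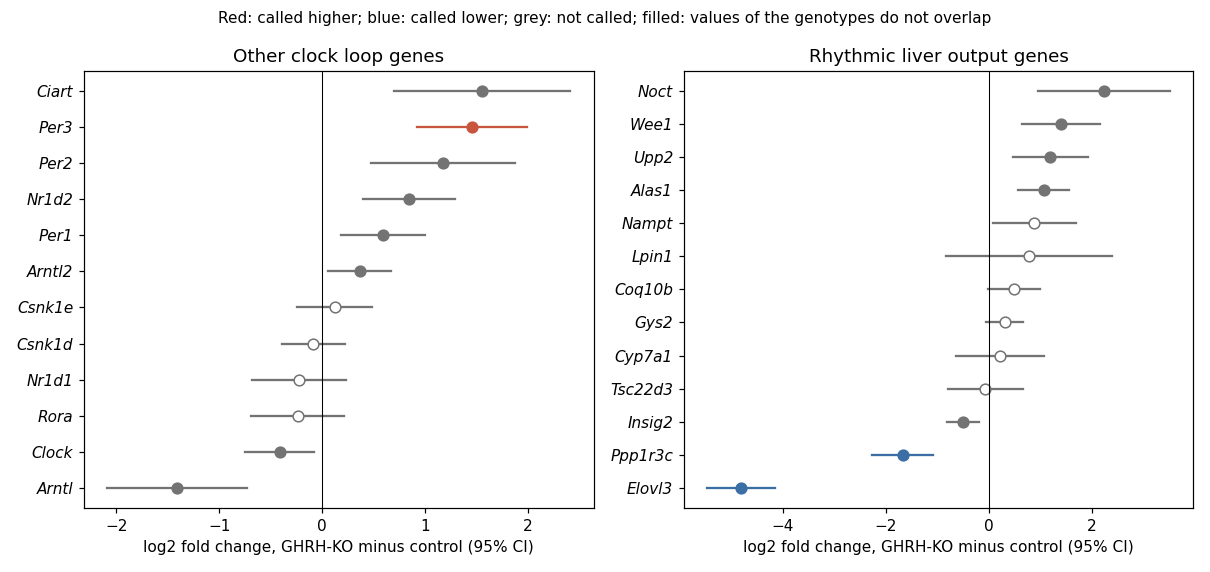
Log2 fold changes (GHRH-KO minus control) with 95% confidence intervals for the 12 tested genes of the rest of the clock loop (left) and 13 tested genes of rhythmic liver output (right). Per3 is the gene called higher, Elovl3 and Ppp1r3c are those called lower, and filled points mark genes whose genotypes do not overlap.

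Read by animal, control replicate 3 lay nearest to the GHRH-KO mice for several of these genes. It had the highest control value of Dbp, Tef, Per2, Per3 and Nr1d2 and the lowest of Arntl and Nfil3. For other genes it went the other way. By the brightest probe sets it was the lowest of the 6 arrays for Per1 and Hlf and the highest for Cry1. Control replicate 1 had the lowest value of Dbp, Tef, Per2, Per3 and Ciart of all 6 arrays and the highest of Arntl. Among GHRH-KO mice, replicate 5 had the highest values of Rgs16, Usp2, Ciart and Per2 and the lowest of Cry2 and Nr1d1 by the brightest probe sets. The other probe sets of Rgs16 were highest in replicate 6, and the third was lowest in replicate 5 among GHRH-KO mice. With the genotype means removed, Pearson's r over the 6 arrays was 0.96 for Usp2 and Rgs16. It was 0.81 for Dbp and Tef and 0.97 for Tef and Per3. Other pairs went the other way, with -0.99 for Cry2 and Rgs16, -0.93 for Cry2 and Usp2 and -0.41 for Tef and Hlf. GHRH-KO replicate 5 lay furthest from its genotype mean for Usp2, Rgs16 and Cry2. These pairs were picked from many and only describe values that share arrays and normalization. Control replicate 1 was also the array with the highest mean of the Kupffer cell markers, and the part of these cells in the values was not tested. Without control replicate 1 the log2 fold changes were 0.91 for Dbp and 0.71 for Tef.

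**Figure D4:**
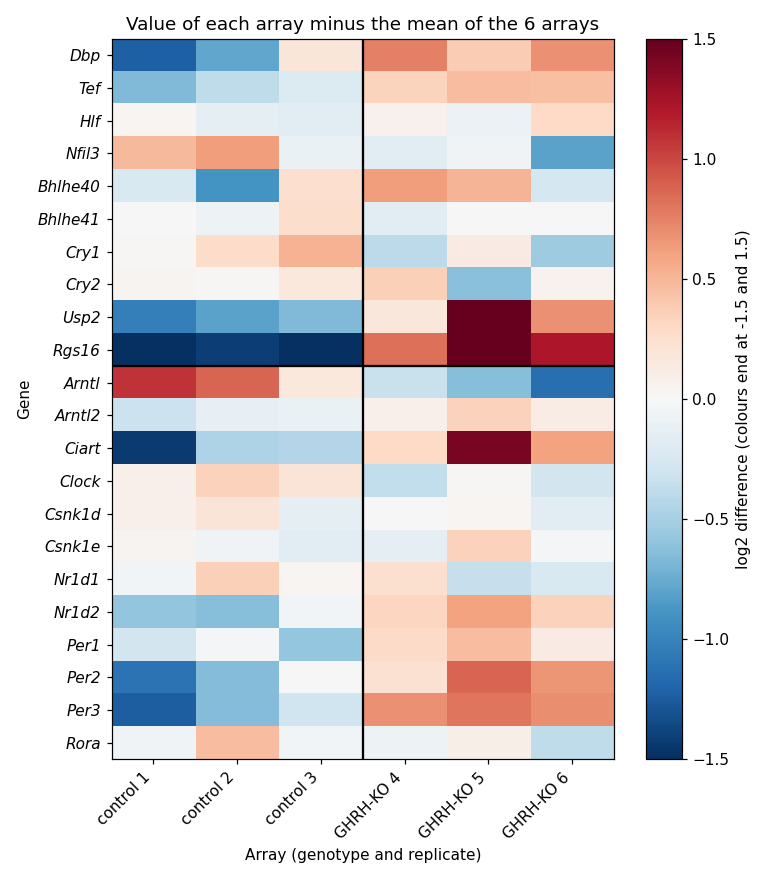
Difference of each array from the mean of the 6 arrays (log2, colours end at -1.5 and 1.5) for the 10 members above the line and 12 other clock loop genes below it. Dbp, Tef, Usp2 and Rgs16 turn from blue or pale in controls to red or pale red in GHRH-KO mice, as do Ciart, Per2 and Per3, while Arntl turns the other way.

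Genes whose values over the 6 arrays were most like those of a called member were named by Pearson's r, as a description that includes the difference between genotypes. For Tef these were Per3 (0.996), Ncbp2 (0.993) and Hamp2 (0.992), of which Per3 and Hamp2 were called higher. Hamp2 has a near-identical copy, Hamp, and its probe set may read both. For the brightest probe set of Rgs16 they were 3110009E18Rik (0.998), Wdr46 (0.997) and Hspb11 (0.997), none of which was called.

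Of 15 genes of rhythmic liver output 13 were tested, and 2 fell and none rose, where 1.76% of all genes were called, while 5 had higher and 3 lower means with p under 0.05 before adjustment, which 19.2% of all genes reached. Elovl3, a fatty acid elongase with a rhythmic transcript, fell by 4.81 in log2 units (SE 0.28, limma adjusted p = 5.9e-04) and was called in all 6 fits with 1 array left out. Ppp1r3c, which targets a phosphatase to glycogen, fell by 1.67 (SE 0.25, limma adjusted p = 0.0283) and was called in 1 of those fits, the one without GHRH-KO replicate 5. Its second probe set was not called. Wee1 is a cell cycle kinase with E-boxes in its promoter, Noct a rhythmic phosphatase and Upp2 a pyrimidine phosphorylase. Alas1 is the first enzyme of heme synthesis and a known target of PAR bZIP factors. By the brightest probe set, the values of these genes all lay higher in each GHRH-KO animal without passing. Their log2 fold changes were 1.39, 2.23, 1.19 and 1.06, with adjusted p of 0.0904, 0.106, 0.122 and 0.0643 from limma. A dimmer probe set of Wee1 (0.19) and one of Upp2 (0.27) overlapped between the genotypes, while another of Upp2 (1.32) did not. Insig2, which holds back sterol synthesis, lay lower in each GHRH-KO animal without passing by its brightest probe set. Its log2 fold change was -0.50 (limma adjusted p = 0.125). In 4 of the 13 genes the GHRH-KO values lay wholly above and in 3 wholly below, where 12.7% and 15.7% of all genes did. The median of this list was 0.49.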

How the data were processed

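Liver RNA of 6 mice was hybridised to Affymetrix mouse genome arrays. The authors deposited RMA values on the log2 scale, background-corrected, quantile-normalized and summarised per probe set for all probe sets, so the detection filter of the methods cannot be repeated. The software version is not given in the sources used here. Quantile normalization makes the arrays alike, so a shift shared by most transcripts would not show. Of 45101 probe sets, 64 controls were left out and as many of the brightest as the methods keep were tested by lmFit and eBayes of limma 3.58.1 under R 4.3.3, adjusted by the Benjamini-Hochberg method. A gene was called at FDR under 0.05 with a fold change above 1.5 or below 0.67. Probe sets were named by the array annotation (34945 with 1 gene, 932 with several). The members and lists were chosen with earlier results of these data known, and the two-sided tests are therefore not independent evidence. The genes named are all members, every called gene of the clock, rhythmic output, fasting and feeding lists, called cell type markers and, for called members, the 3 most alike genes. Clock and output genes discussed without a call were added after their values were seen. The test was checked on simulated data. Alternatives were no filter, the 15000 brightest probe sets, a second quantile normalization, median centring, a trended robust variance, array weights, no fold threshold, the probe set with the lowest p, the mean of probe sets, no _x_at or _s_at probe sets, and arrays left out. Figures were drawn with matplotlib 3.10.9. Each array is a separate animal, and having 3 per genotype limits the precision.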

Additional observations from a re-analysis of the deposited data

How the results depend on the processing

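The directions of 9 of the 10 members held under all alternatives that gave a value, and Cry2 ran from -0.36 to 0.13 with 1 array left out, the positive value being that without GHRH-KO replicate 5, and was 0.10 when GHRH-KO replicate 5 and control replicate 2 were both left out. The count of members called, 2, became 1 with a second quantile normalization, where the adjusted p of Tef was 0.0532 from limma, 1 when that pair of arrays was left out, and 0 to 2 with 1 array left out, being 0 without GHRH-KO replicate 6 or either of control replicates 1 and 2, and 1 without control replicate 3. Array weights or the probe set with the lowest p gave 3. With the mean of probe sets the count stayed at 2, but Tef lost its call (0.58, adjusted p = 0.107 from limma) and Usp2 was called (1.95, adjusted p = 0.0473). With 1 array left out, 131 to 277 probe sets and 81 to 163 genes were called in place of 372 and 219. Without the pair these were 175 and 108, and with array weights 941 and 536. The call in the rest of the clock loop, 1, became 3 with array weights, 0 with the mean of probe sets or without the pair, and 0 to 1 with 1 array left out. Rhythmic output, with 2 calls, had 5 with array weights and 1 to 2 with 1 array left out. Fasting response, with 1 call, had 2 with a second quantile normalization, trended robust variance, the lowest p or the mean of probe sets, 3 with array weights, and 1 to 2 with 1 array left out. Among called genes 44.7% were higher, and 62.9% without control replicate 1. No paired analysis was possible because the labels number the arrays 1 to 6, with no number shared between genotypes.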

Other observations

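Fasting response genes were read beside the clock genes, because the liver clock and the output genes Rgs16 and Usp2 are known to follow feeding. Of 15 genes of fasting and glucocorticoid response 14 were tested, and 1 was called, where 1.76% of all genes were called. It was Igfbp1, a binding protein of IGF1, which rose by 4.55 in log2 units (SE 0.49, limma adjusted p = 0.00829). It read 6.93, 7.52 and 5.83 in controls and 11.88, 11.56 and 10.50 in GHRH-KO mice, and kept its call with any 1 array left out. Ppargc1a, a coactivator of fasting metabolism, had a log2 fold change of 1.10 (adjusted p = 0.0561 from limma) by its brightest probe set. Another of its probe sets was called (limma adjusted p = 0.0495), but not without the filter on dim probe sets (0.0533), and in 1 of 6 fits with 1 array left out, the one without GHRH-KO replicate 5. The gluconeogenic enzymes Pck1 and G6pc lay higher in each GHRH-KO animal than in any control, by 0.62 and 0.52 (adjusted p = 0.125 and 0.203 from limma), without passing, by their brightest probe sets. A second Pck1 probe set had a log2 fold change of -0.72 (limma adjusted p = 0.811), with GHRH-KO replicate 5 at 3.85 and the other arrays at 8.13 to 9.58. In 7 of the 14 the GHRH-KO values lay wholly above, where 12.7% of all genes did, and the median log2 fold change was 0.50.

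Other genes of that list had lower means. Fkbp5 had a log2 fold change of -0.45 (95% confidence interval -1.19 to 0.29), and without GHRH-KO replicate 5 it was -0.84 and called (limma adjusted p = 0.0463). Tat had a log2 fold change of -0.08 and Sgk1 one of -0.17. Tsc22d3, from the list of rhythmic output, had one of -0.07 by its brightest probe set. Its probe sets differed, and another gave -0.89 (limma adjusted p = 0.133) with every GHRH-KO value below the controls. The remaining tested probe sets of Tsc22d3 overlapped between the genotypes. Of 11 genes of the feeding and lipogenic response none was called by limma, where 1.76% of all genes were called. With p under 0.05 before adjustment, 2 had higher and 2 lower means, where 19.2% of all genes passed in either direction. The median of these 11 genes was 0.02. Srebf1, which encodes a lipogenic transcription factor, had a log2 fold change of -0.92 (adjusted p = 0.182 from limma), with GHRH-KO replicate 5 the lowest array at 9.80. That array, which stood apart from the others, also held the highest Rgs16, Usp2, Angptl4 and Pdk4 by the brightest probe sets, with Pdk4 at 8.43 against 5.63 to 6.62 in the other arrays. Within the feeding and lipogenic list it went both ways by the brightest probe sets. It held the lowest Mlxipl as well as the lowest Srebf1, but the highest Acaca, Acly, Elovl6, Scd1, Thrsp and Pnpla3 of all 6 arrays.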
